A study of Mus musculus with 15 samples.

Results

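Haematopoietic stem cells (HSC) and granulocyte-macrophage progenitors (GMP), both sorted from the marrow of old mice, were compared across all genes of a microarray. The series held 15 Affymetrix arrays, and the comparison used 6 of them, 3 labelled old HSC and 3 labelled old GMP. Another 9 arrays, 5 of young HSC and 4 of young GMP, entered the same model and served to ask whether the difference between the cell types was of another size in old mice. All mice were labelled wild-type male C57Bl/6, aged 22 to 30 months (old) or 6 to 12 weeks (young).

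Both gates took lineage-negative, c-Kit+ cells. HSC were those with Sca-1+ and CD150+ that were Flk2- and CD48-, and GMP were those with CD34+ and FcγR+ that were Sca-1-. Cells of both gates were sorted in succession 2 times, RNA was prepared with a PicoPure kit, and cDNA was amplified with a NuGEN Pico whole-transcript kit, labelled with biotin and hybridised. Whether RNA came from single or pooled mice, and whether arrays of a group came from different mice, is not given in the labels, so every p-value here measures the spread between arrays. These were bulk samples, in which fewer cells of a type and less RNA per cell cannot be told apart.

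HSC sit at the top of the blood system: they renew themselves, divide rarely, and give rise to every blood lineage. GMP are committed progenitors that divide often and mature into neutrophils and monocytes; under the transcription factors PU.1 and C/EBPα they begin to make the proteases and the peroxidase of the primary granules, the vesicles with which neutrophils kill microbes. In old mice the stem cell gate holds more cells than in young mice, and their output is known to lean towards myeloid cells and platelets.

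A member of the comparison was any gene with a probe set that names it alone, and the probe set with the highest mean over all arrays stood for a gene with several. This gave 19296 genes. Levels are log2 values as deposited, so a difference of 1 is 2-fold, and each difference is old HSC minus old GMP with its standard error (SE), which rests on a spread estimated over all 15 arrays. A gene is called changed where limma's Benjamini-Hochberg adjusted p over all 19296 genes was under 0.05. The values carry no detection calls: a level under an array's lower quartile (6.19 to 6.43 on the 6 old arrays) is near the dim end of the array, and a difference that ends there is as measured, not an exact fold.

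The marker genes of each population differed in the direction of its label. They were chosen with earlier results of these data known, so their direction is no independent check of the labels. Cysltr2, a receptor for cysteinyl leukotrienes, measured 10.16, 9.62 and 10.50 on the old HSC arrays and 5.71, 5.51 and 6.16 on the old GMP arrays. Clca3a1, of a family of chloride channel accessory proteins, measured 9.98, 9.12 and 10.12 against 5.10, 5.62 and 5.89, and Klhl4, a kelch-like protein, 9.97, 9.30 and 10.12 against 5.74, 5.53 and 5.78. All 3 were bright on every HSC array and below the lower quartile on every GMP array. Conversely, Mpo, the myeloperoxidase of primary granules, measured 6.67, 7.29 and 6.80 on the HSC arrays and 13.28, 13.32 and 13.11 on the GMP arrays, and Ctsg, the granule protease cathepsin G, 5.90, 5.84 and 5.98 against 12.45, 12.46 and 12.51. Both genes were bright on every GMP array and no array of one group reached the other.

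The genes of the sorting antigens are a check on the gates rather than a result. Slamf1 (CD150) was higher in HSC by 3.37, and Cd48, Fcgr3 and Cd34 were lower, with differences of -4.41, -3.35 and -1.59. Kit, part of both gates, was higher in HSC by 1.16. Fcgr2b, another Fc receptor gene and counted with the GMP gate, was lower in HSC, at -1.89. The lineage genes Cd3e, Cd4, Cd5 and Cd8a and the pan-leukocyte gene Ptprc were not called (differences -0.09 to 0.25). Itgam (CD11b), also a lineage gene, was higher in GMP, at -1.15. Flt3, which encodes the Flk2 antigen absent from the HSC gate, was lower in HSC, at -0.74 ± 0.14. In young mice Flt3 was instead higher in HSC, by 0.69. The signs for Cd4 and Cd5, both close to 0, turn with single arrays.

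The sequence just before the transcription start is shown for 4 granule genes of GMP, since Ctsg and Mpo show the widest gaps between the populations and Elane and Prtn3 are their companions in the granule. The sequences are the 200 bases before the start in RefSeq's GRCm38.p6 annotation, read 5′ to 3′ on the gene's strand, with capitals marking GAGGAA, a core to which PU.1 can bind. Elane (neutrophil elastase) and Prtn3 (proteinase 3) lie on the + strand of the same chromosome, at chr10:79886112-79886311 and chr10:79879467-79879666. Mpo lies at chr11:87793584-87793783 on the + strand and Ctsg at chr14:56102575-56102774 on the − strand.
Elane: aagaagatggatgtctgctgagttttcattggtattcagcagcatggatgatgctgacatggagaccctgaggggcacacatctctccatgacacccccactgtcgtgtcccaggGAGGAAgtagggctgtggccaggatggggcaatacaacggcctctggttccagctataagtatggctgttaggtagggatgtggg
Prtn3: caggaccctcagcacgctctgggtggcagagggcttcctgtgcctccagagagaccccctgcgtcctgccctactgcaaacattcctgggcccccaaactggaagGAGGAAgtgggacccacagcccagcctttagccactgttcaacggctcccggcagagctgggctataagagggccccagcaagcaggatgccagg
Mpo: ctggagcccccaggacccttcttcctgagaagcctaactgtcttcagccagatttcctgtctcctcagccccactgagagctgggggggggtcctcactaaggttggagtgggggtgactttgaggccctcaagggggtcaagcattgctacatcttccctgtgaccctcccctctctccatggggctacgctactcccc
Ctsg: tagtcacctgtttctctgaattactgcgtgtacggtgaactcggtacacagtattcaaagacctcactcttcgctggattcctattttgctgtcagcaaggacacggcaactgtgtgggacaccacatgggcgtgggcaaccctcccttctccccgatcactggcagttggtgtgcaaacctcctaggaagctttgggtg

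GAGGAA occurred once in the Elane window, beginning 85 bases before the start, and once in the Prtn3 window, beginning 95 bases before it. The Mpo and Ctsg windows held none of the motifs searched on either strand, which says only that those letters are not in these 200 bases. Among the 15 genes of the primary granule list with an annotated promoter, 26.7% held GAGGAA. It was held by 18.9% of all 27025 promoters and by 18.3% of the 15160 promoters of genes tested. For TTNNGNAA, a C/EBP pattern, the shares in the same order were 26.7%, 30.1% and 26.4%. For AGATAA, the core bound by Gata2 and its relatives, they were 13.3%, 7.98% and 6.67%. Elane and Prtn3 held no match to these 2 patterns, and the windows of Cysltr2, Clca3a1 and Klhl4 held no match to any of the 3. Over the 81 genes called and over 4-fold higher in GMP that had a promoter, the shares were 30.9% for GAGGAA, 42.0% for TTNNGNAA and 11.1% for AGATAA, and over the 87 such genes higher in HSC they were 25.3%, 28.7% and 5.75%. Motifs were sought on both strands and no overlap between motifs was removed. Over the 565 genes with a promoter called and over 2-fold higher in GMP, GAGGAA was held by 21.1%, TTNNGNAA by 27.4% and AGATAA by 6.02%. Over the 432 such genes higher in HSC the shares were 22.9%, 25.9% and 4.86%. For GAGGAA the order of GMP and HSC genes thus turned with the threshold. These shares are descriptions without a test.

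Old HSC and old GMP differed at 4292 of the 19296 genes, which is 22.2% (limma adjusted p under 0.05). HSC were higher at 1785 genes, or 9.25%, and GMP at 2507, or 13.0%. The median absolute difference was 0.18 over all genes and 0.75 over called genes. Of the calls, 572 were over 2-fold higher in HSC (2.96% of genes) and 698 over 2-fold higher in GMP (3.62%); over 8-fold, the counts were 30 and 39. The 3 HSC values all lay above the 3 GMP values at 3151 genes (16.3%) and all below them at 3546 (18.4%), and at 130 called genes the arrays of the groups overlapped.

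The first principal component of the 6 old arrays separated the cell types and held 73.3% of the variance. Within GMP the arrays correlated at 0.989 to 0.991 over genes, within HSC at 0.978 to 0.988, and between the cell types at 0.936 to 0.944, as a description over genes that are not independent. The second component (13.5%) ran from old HSC 2 at 26.0 to old HSC 3 at -25.1. Old HSC 2 also had the narrowest interquartile range, 1.96 against 2.15 and 2.33 on the other HSC arrays and 2.27 to 2.48 on the GMP arrays. The difference also varied with level: in the 10 groups of genes from dimmest to brightest, the median difference rose from 0.03 to 0.09 in the fifth and then fell to -0.11, -0.24 and -0.30 in the 3 brightest. After quantile normalization, which gives all arrays 1 distribution, 2224 genes were higher in HSC and 2353 in GMP, and with the interquartile range as a covariate 2144 were higher in HSC and 2354 in GMP.

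**Figure D1:**
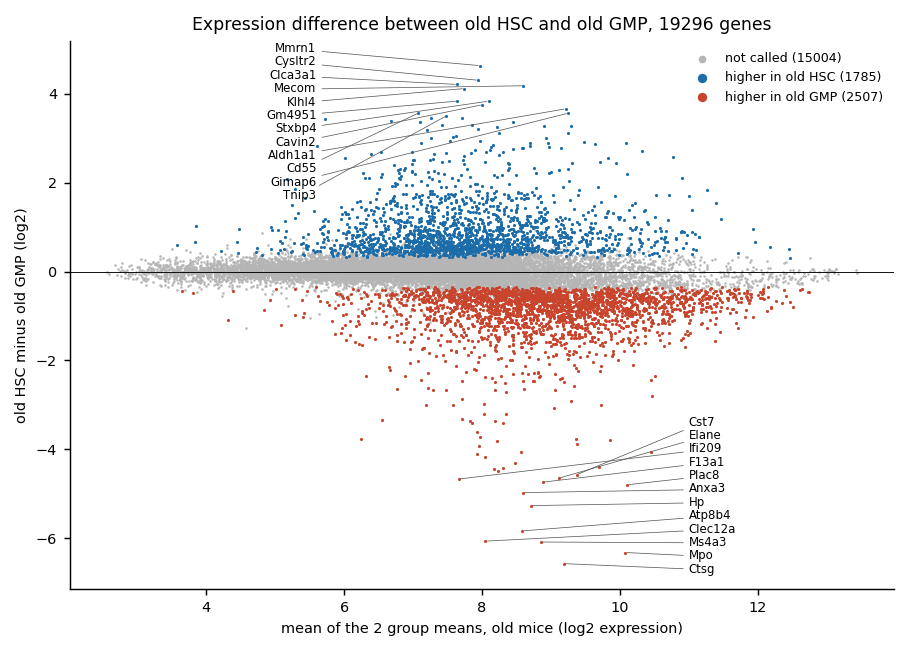
Old HSC minus old GMP difference (log2) of each of the 19296 genes against its mean level (log2) over the 6 old arrays, with called genes coloured by direction. The GMP side reaches further, to -6.57 for Ctsg against 4.63 for Mmrn1 on the HSC side.

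The genes highest in old HSC over old GMP were led by Mmrn1, which encodes multimerin 1, a carrier of factor V in platelets and endothelium. It measured 10.35, 9.86 and 10.64 on the HSC arrays and 5.35, 5.63 and 5.98 on the GMP arrays, a difference of 4.63 ± 0.24 (limma adjusted p = 5.09e-11). Cysltr2 followed at 4.30 ± 0.26, Clca3a1 at 4.21 ± 0.34 and Klhl4 at 4.11 ± 0.21. Mecom, whose product Evi1 is required to maintain stem cells, measured 10.83, 10.29 and 10.94 against 6.41, 6.51 and 6.62, which is 18.1-fold (4.18 ± 0.16, limma adjusted p = 3.78e-13). Its SE was the smallest of these 5 genes. Aldh1a1, an enzyme that makes retinoic acid, measured 11.01, 10.99 and 11.13 against 7.19, 6.94 and 8.01, or 12.6-fold higher. Gimap6, a GTPase of lymphocyte survival, measured 11.03, 10.77 and 11.29 against 6.96, 7.34 and 8.11. The HSC arrays of both genes were close together and old GMP 3 was the highest of its group. Cavin2, a protein of caveolae, was higher by 3.75, Cd55, a shield against complement, by 3.56, Tnip3, a partner of the inflammatory regulator A20, by 3.50, and Stxbp4 and Gm4951 by 3.83 each. For 7 of these 12 genes every GMP array lay below its lower quartile, so the size of the gap is bounded by the dim end of the arrays.

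In the other direction the differences were larger. Ctsg differed by -6.57 ± 0.14 (limma adjusted p = 7.28e-17) and Mpo by -6.32 ± 0.18, which for Mpo is 79.7-fold. Ms4a3, a membrane protein that marks GMP and their offspring, measured 5.85, 5.73 and 5.85 on the HSC arrays and 11.79, 11.81 and 12.07 on the GMP arrays. Clec12a, an inhibitory lectin receptor of myeloid cells, measured 4.97, 5.15 and 4.91 against 10.95, 11.19 and 11.07. Both were below the lower quartile on all HSC arrays. Elane measured 6.69, 7.02 and 6.68 against 11.39, 11.48 and 11.45, or 25.0-fold (-4.64 ± 0.19, limma adjusted p = 1.37e-12). Plac8, which is needed for bacterial killing by neutrophils, measured 7.88, 7.18 and 8.08 against 12.47, 12.56 and 12.48, and Hp (haptoglobin) 6.13, 6.18 and 5.92 against 11.48, 11.24 and 11.30. The GMP arrays lay within a narrow band for each of these genes, while old HSC 2 was the lowest array for Plac8 and the highest for Elane. Cst7, an inhibitor of cathepsins and of granzyme processing, differed by -4.57, F13a1 (the A chain of clotting factor XIII) by -4.74, Anxa3 (annexin A3) by -4.97, Atp8b4 (a lipid flippase) by -5.83 and Ifi209 (an interferon-inducible DNA sensor family member) by -4.67. For 7 of the 12 largest GMP genes every HSC array was below its lower quartile. All 24 genes were called in the same direction in the young arrays, which share no array with the old ones.

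**Figure D2:**
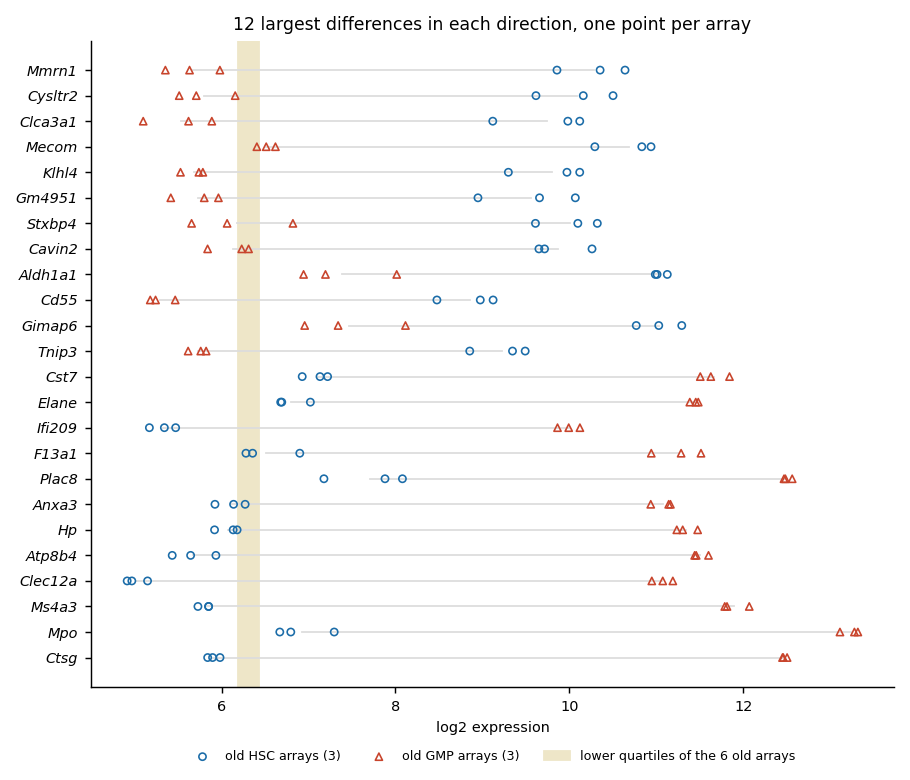
Log2 level on each of the 6 old arrays for the 12 genes with the largest called difference in each direction, 1 point per array. The HSC and GMP points do not overlap for any of the 24 genes, by the rule that chose them, and GMP levels of the granule genes reach 13.32 for Mpo.

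Stem cell and myeloid transcription factors were taken first among the gene groups. Counts in every group are to be read beside the shares over all genes. These were 9.25% called higher in HSC and 13.0% higher in GMP. Over 2-fold they were 2.96% and 3.62%, and without overlap of arrays 16.3% and 18.4%. Of 29 measured stem cell factors, 21 were higher in HSC, none was higher in GMP, and the median difference was 0.91, against 0.02 over all genes. Meis1, a HOX cofactor, measured 11.60, 11.30 and 11.69 on the HSC arrays and 8.32, 8.39 and 9.22 on the GMP arrays (2.89 ± 0.20). Hlf, a PAR bZIP factor that guards quiescence, measured 11.19, 10.71 and 11.30 against 8.39, 7.89 and 8.33 (2.86 ± 0.17). Ndn (necdin), an imprinted growth suppressor, measured 8.87, 8.54 and 8.89 against 5.85, 5.72 and 5.72. The HSC arrays of each factor lay well above all GMP arrays. Gata2, Gata3, Hoxb5 and Gfi1b were among the other called factors, at 1.26, 1.60, 1.28 and 0.91, and Hoxa9 was called at 0.69. Runx1, needed to form the first stem cells and used by both populations, was not called, at 9.70, 9.65 and 9.95 against 10.02, 9.72 and 9.91.

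The 22 myeloid factors split. GMP were higher at 9 and HSC at 3 and the median was -0.07. Irf8, which drives monocyte fate, measured 7.37, 7.28 and 7.20 in HSC and 9.46, 9.66 and 9.13 in GMP (4.39-fold). Cebpa, which encodes C/EBPα, measured 8.31, 8.14 and 7.79 against 10.08, 9.71 and 10.15 (3.73-fold), and Spi1, which encodes PU.1, 7.79, 7.59 and 8.15 against 9.74, 9.44 and 9.52 (3.31-fold). All 3 factors were lower on every HSC array than on any GMP array, with HSC levels above the arrays' lower quartile. Nfil3 differed by -1.24. Egr2, Bach2 and Stat3 were higher in HSC, by 1.30, 0.63 and 0.61. Gfi1, a transcriptional repressor that acts in the granulocyte branch, was not called (-0.33, limma adjusted p = 0.101).

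The primary granule genes, which the myelocytic series begins to make at the GMP stage, were higher in GMP at 17 of 20, none was higher in HSC, and the median was -2.54. The list also holds Hp (haptoglobin) and Ms4a3, a membrane protein, so its counts and median are not of primary granule proteins alone. Besides Mpo, Ctsg and Elane, Prtn3 measured 8.32, 8.14 and 8.40 in HSC and 10.34, 10.42 and 10.38 in GMP (-2.09 ± 0.29). The 3 GMP arrays lay within a narrow band and all HSC arrays lay below them. Lyz2 (lysozyme) was not called, at 8.97, 8.81 and 9.47 in HSC and 9.46, 9.63 and 9.31 in GMP. Among genes of later granules and of the oxidase, 9 of 17 were higher in GMP and 1 in HSC, with a median of -0.56. Cybb, the catalytic subunit of the NADPH oxidase, measured 6.08, 6.11 and 5.68 against 10.10, 10.51 and 9.78, and S100a8, a calcium-binding protein of the neutrophil cytosol, 6.14, 6.67 and 6.98 against 9.73, 9.64 and 10.63. Both were low in HSC and bright on all GMP arrays. Cxcr2, the receptor that draws neutrophils out of marrow, measured 5.32, 5.77 and 5.97 against 8.71, 8.20 and 9.15. S100a9, the partner of S100a8, differed by -1.67, but its call was lost on leaving out any 1 of old GMP 2, old GMP 3 or the 3 old HSC arrays (limma adjusted p of 0.0532 to 0.0985). Padi4, which citrullinates histones, was the member higher in HSC, by 0.97.

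Receptors for cytokines and chemokines were called in both directions. Of 20 stem cell receptors 7 were higher in HSC and 5 in GMP, with a median of 0.18, and of 19 myeloid receptors none was higher in HSC and 9 in GMP, with a median of -0.29. Tek, the angiopoietin receptor Tie2, measured 8.56, 8.23 and 8.69 in HSC and 5.79, 5.95 and 6.25 in GMP. Ghr (growth hormone receptor), Tgfbr3 (betaglycan) and Bmpr2 were higher by 2.08, 1.77 and 1.27. On the GMP side, Ccr2, which guides monocytes to inflamed tissue, measured 6.12, 6.37 and 5.89 against 9.68, 9.94 and 9.59, and Csf1r, the macrophage colony-stimulating factor receptor, 6.10, 6.37 and 5.98 against 8.88, 8.74 and 8.79. Levels of both in HSC were near the arrays' lower quartile. Csf2rb and Ifngr1, chains of the receptors for GM-CSF and interferon gamma, differed by -1.93 and -1.54.

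Surface proteins that stem cells share with endothelium were higher in HSC at 29 of 35 genes and in GMP at 2, with a median of 1.31. The list includes Cysltr2, Clca3a1 and Klhl4, taken from earlier results of these data, and is no independent evidence of its direction. Procr, the protein C receptor used to purify HSC, measured 8.90, 8.54 and 8.91 against 6.69, 6.90 and 6.97. Esam, an adhesion molecule of endothelial junctions, measured 7.93, 7.79 and 8.25 against 6.62, 6.45 and 6.51. Procr and Esam both had HSC and GMP arrays far apart. Pecam1 (CD31) and Cd93 went the other way, at -0.81 and -0.60. Platelet and megakaryocyte genes were higher in HSC at 13 of 18, with none higher in GMP and a median of 1.05. Vwf (von Willebrand factor) measured 8.97, 8.92 and 8.99 against 7.53, 7.52 and 7.44 (1.47 ± 0.14). Pf4 (platelet factor 4) measured 8.95, 9.26 and 9.04 against 7.16, 6.19 and 8.22 (1.89 ± 0.44, limma adjusted p = 0.00309). The 3 arrays of each group were close together for Vwf, whereas the GMP arrays of Pf4 spread widely, old GMP 3 being the highest. Fhl1 and F2r, a thrombin receptor, were higher by 1.68 and 1.66, and Itga2b (CD41) by 0.62.

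**Figure D3:**
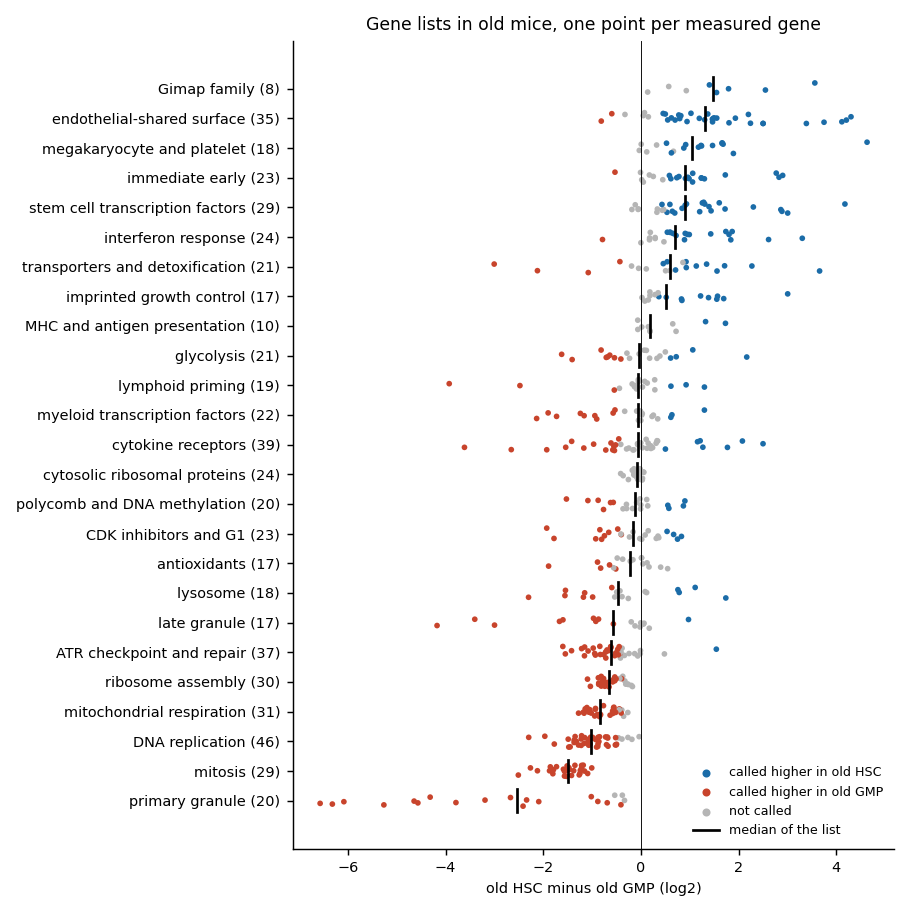
Old HSC minus old GMP difference (log2) of every measured member of each gene list, 1 point per gene with called members coloured, and the list's median as a bar. All mitosis points lie below 0 with a median of -1.50, and the stem cell factors have a median of 0.91.

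Genes of the entry into S phase were called in both directions. Among 6 CDK inhibitors 1 was higher in HSC and 1 in GMP. Cdkn1c (p57), the inhibitor most tied to stem cell quiescence, measured 7.80, 7.84 and 7.80 in HSC and 6.94, 6.99 and 7.02 in GMP (0.83 ± 0.19, limma adjusted p = 0.0034). Cdkn2c (p18) was higher in GMP (-0.66), and Cdkn1b (p27) was not called, with 9.36, 9.08 and 10.09 against 9.06, 9.11 and 9.42. Of 17 G1 cyclins, kinases and E2F or RB family genes, 3 were higher in HSC and 8 in GMP. Ccnd1 and the RB relative Rbl2 were higher in HSC by 0.75 and 0.67. Ccnd3 was higher by 0.54, but not without old HSC 1 (limma adjusted p = 0.0611). Cdk6, whose loss slows the exit of stem cells from quiescence, measured 10.71, 10.22 and 10.50 in HSC and 11.51, 11.31 and 11.39 in GMP. E2f8, Ccne2 and Cdk4 differed by -1.93, -1.78 and -0.84.

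DNA replication genes were higher in GMP at 41 of 46, with none higher in HSC and a median of -1.03. Of the 46, 24 were over 2-fold higher in GMP and 44 had arrays that did not overlap. Over all genes the shares called, over 2-fold and not overlapping towards GMP were 13.0%, 3.62% and 18.4%. Origin licensing and helicase genes gave 14 of 16 and fork and nucleotide supply genes 27 of 30. Rrm2, the inducible subunit of ribonucleotide reductase, measured 7.74, 8.05 and 7.92 in HSC and 10.38, 10.06 and 10.16 in GMP, or 4.91-fold (-2.30 ± 0.14, limma adjusted p = 6.4e-10). Mcm2, a subunit of the replicative helicase, measured 8.38, 8.63 and 8.93 against 9.74, 9.42 and 10.02. Gins1 and Cdc45, the other parts of that helicase, differed by -1.97 and -1.49, and Gmnn (geminin), the brake on relicensing, by -1.77. Pcna, the sliding clamp, was not called and measured 12.54, 12.34 and 12.61 against 12.62, 12.88 and 12.79 (-0.27, limma adjusted p = 0.158). After quantile normalization the list's median was -0.79.

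Checkpoint and repair genes followed with 25 of 37 higher in GMP and 1 in HSC, a median of -0.61, and 7 over 2-fold in GMP. In the ATR checkpoint 10 of 14 were higher in GMP (median -0.68), and in repair 15 of 23 (median -0.51). Tipin, which steadies stalled forks, measured 9.48, 9.50 and 9.69 in HSC and 11.06, 11.17 and 11.24 in GMP. Chek1, the checkpoint kinase that ATR activates, measured 8.05, 7.94 and 8.22 against 9.17, 8.93 and 9.55. HSC and GMP arrays did not overlap for either gene. Atr and its partner Atrip, which sense the damage, were not called, at -0.39 (limma adjusted p = 0.0992) and -0.07 (limma adjusted p = 0.853). Fancd2, Blm and Brca1, which repair crosslinks and breaks by recombination, differed by -1.55, -1.42 and -1.21. Xrcc5 (Ku80), of the end-joining route that needs no sister chromatid, was the member higher in HSC, with 8.97, 8.91 and 9.22 against 7.28, 6.95 and 8.24 (1.54 ± 0.28, limma adjusted p = 0.000385).

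Mitotic genes were higher in GMP at 29 of 29, all of them over 2-fold and with no overlap of arrays, and the median was -1.50. Ect2, which positions the cleavage furrow, measured 7.17, 7.23 and 6.85 in HSC and 9.26, 10.02 and 9.50 in GMP (-2.51 ± 0.17). Cdk1, the mitotic kinase, measured 8.49, 8.69 and 7.81 against 10.04, 10.38 and 10.20 (-1.87 ± 0.20). Mki67, whose protein marks cycling cells, measured 9.44, 9.81 and 9.19 against 10.52, 10.81 and 10.75, and was the gene with the largest SE of the 3, 0.29. Old HSC 3 was the lowest array for each of Ect2, Cdk1 and Mki67. Mean level over the 29 genes ran from 8.17 to 8.72 on the HSC arrays and from 9.71 to 10.17 on the GMP arrays. Bub1 and Ttk, spindle checkpoint kinases, differed by -2.26 and -2.12. The median was -1.23 after quantile normalization.

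Most genes of ribosome assembly and respiration were higher in GMP, by smaller amounts. Ribosome assembly factors were higher in GMP at 22 of 30 with a median of -0.65, none being higher in HSC, and 2 passed 2-fold. These were Utp14a, a processing factor, with 8.61, 8.21 and 9.05 against 9.60, 9.59 and 9.97, and Nhp2, which guides RNA modification, with 9.60, 9.39 and 9.76 against 10.42, 10.61 and 10.84. Both genes kept the groups apart with old HSC 2 the lowest array. Rrs1 and Wdr12 differed by -0.87 and -0.86. Of the 24 structural proteins of the cytosolic ribosome measured here, none was called in either direction by limma, the median was -0.08 (0.07 after quantile normalization), and the furthest were Rpl8 at -0.41 and Rpl14 at -0.36. Mitochondrial respiration genes were higher in GMP at 27 of 31, none in HSC, with a median of -0.84. Sdhb, of complex II, measured 8.95, 8.53 and 9.19 against 10.08, 10.22 and 10.20, and Ndufb8, Cox5a and Atp5o, of complexes I, IV and V, differed by -1.18, -1.16 and -1.14. On the quantile scale 18 of the 31 were called with a median of -0.52. Respiration and ribosome assembly genes are among the brighter genes, at which the median of all genes was also below 0.

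Glycolysis genes showed no common direction, with 4 of 21 higher in HSC and 8 in GMP and a median of -0.04 (0.07 after quantile normalization). Slc2a3, a high-affinity glucose carrier, measured 9.35, 9.23 and 9.53 in HSC and 6.97, 7.15 and 7.49 in GMP. Aldoc (aldolase C) and Pdk4, which closes the entry of pyruvate into mitochondria, were higher in HSC by 1.06 and 0.61. Ldhb was higher by 0.72, though not without old GMP 1, old HSC 1 or old HSC 3 (limma adjusted p of 0.0611 to 0.107). Hk3, the hexokinase of myeloid cells, and Pgam1, Pgk1 and Tpi1 of the later steps differed by -1.62, -1.41, -0.82 and -0.71. Antioxidant enzymes were called in GMP at 5 of 17 and in HSC at none, with a median of -0.22; Gsr (glutathione reductase) and Gpx1 differed by -1.89 and -0.82. That count fell to 2 without old HSC 2 and rose to 8 after quantile normalization, where 3 of the 8 were higher in HSC. Sod2 at -0.64 and Prdx3 at -0.89, both mitochondrial, lost the call on leaving out any of 4 and 5 of the old arrays respectively, old GMP 2, old GMP 3, old HSC 1 and old HSC 2 for both and old GMP 1 for Prdx3 (limma adjusted p of 0.0743 to 0.203).

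Imprinted genes with roles in growth were higher in HSC at 10 of 17, with none higher in GMP and a median of 0.52. Sgce, paternally expressed, measured 8.02, 7.65 and 8.12 in HSC and 6.11, 6.45 and 6.14 in GMP. Rian, a maternally expressed RNA of the Dlk1-Meg3 cluster, measured 6.92, 6.27 and 7.73 against 5.64, 5.38 and 5.20, and Grb10, an adaptor that dampens insulin signalling, was higher by 1.55. The HSC arrays of Rian spread over more than 1 log2 unit with old HSC 2 the lowest. Efflux pumps and detoxifying enzymes were higher in HSC at 11 of 21 and in GMP at 4, with a median of 0.59. Abcg2, the dye pump behind the side population of stem cells, measured 9.50, 9.07 and 9.93 against 7.75, 8.19 and 8.53, and Abcb1a, another pump, 8.86, 8.60 and 8.93 against 7.69, 7.61 and 7.68. Sult1a1 and Gsta4 were higher by 2.27 and 1.71. Gstm2 was higher by 1.56, but not without old HSC 1 (limma adjusted p = 0.0648). Mgst1, the microsomal glutathione transferase, went the other way with 6.38, 5.87 and 5.98 against 8.90, 9.25 and 9.10, as did Mgst2 at -2.12 and Gstm1 at -1.08.

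Immune genes formed several groups that were higher in HSC. Gimap GTPases, encoded side by side in 1 cluster, were higher at 5 of 8 with a median of 1.48; Gimap5, Gimap1 and Gimap8 differed by 2.55, 1.79 and 1.55. Interferon target genes were higher in HSC at 16 of 24 and in GMP at 1, with a median of 0.69. The list does not hold every interferon-inducible gene: Ifi209, at -4.67 among the largest GMP differences, is not on it. Iigp1, an interferon-inducible GTPase, measured 8.87, 8.46 and 9.87 in HSC and 5.89, 5.63 and 5.78 in GMP, and Rtp4, a transporter chaperone, 9.45, 8.79 and 10.43 against 6.65, 6.69 and 7.49. Old HSC 3 was the highest and old HSC 2 the lowest array for Iigp1, Rtp4 and Rian. Ddx58, the RNA sensor RIG-I, and Ifitm1 were higher by 1.87 and 1.84, and Gbp3 was higher in GMP (-0.79). Class II antigen presentation genes were called in HSC at 2 of 6 with a median of 0.69, and none of 4 class I genes was called (median 0.06). H2-Aa measured 9.72, 9.59 and 10.37 against 7.59, 9.05 and 7.85 (1.73 ± 0.48, limma adjusted p = 0.0127), and Cd74, the invariant chain, 8.23, 8.34 and 9.28 against 7.09, 7.91 and 6.87 (1.32 ± 0.36, limma adjusted p = 0.0104). Old GMP 2 stood above the other GMP arrays for both. H2-Aa lost its call without old GMP 1, old GMP 3 or old HSC 3 (limma adjusted p of 0.0577 to 0.0697) and Cd74 without old GMP 3 or old HSC 3 (limma adjusted p of 0.0644 and 0.0682).

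Immediate early genes, which respond within minutes to signals and also to cell handling, were higher in HSC at 16 of 23 and in GMP at 1, with a median of 0.91. Nr4a2, an orphan nuclear receptor, measured 10.66, 11.12 and 11.01 in HSC and 7.99, 8.25 and 7.85 in GMP, and Nr4a1 9.73, 10.37 and 10.24 against 7.44, 7.19 and 7.21. Egr1, which restrains the division and exit of stem cells, measured 10.38, 10.66 and 10.55 against 7.06, 7.95 and 8.28, and Fosb was higher by 1.73. Every HSC array exceeded every GMP array for these 4 genes; both populations went through the same double sort, and the part of handling in these values was not tested. Myc was the member higher in GMP, at 11.05, 10.54 and 11.29 against 11.46, 11.14 and 11.86 (-0.53, limma adjusted p = 0.0328), with overlapping arrays. Its call was lost without old GMP 1, old GMP 3, old HSC 1 or old HSC 2 (limma adjusted p of 0.0549 to 0.228) and after quantile normalization (0.439).

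Chromatin and lymphoid genes were mixed. Of 20 polycomb and DNA methylation genes 4 were higher in HSC and 6 in GMP, with a median of -0.13. Ezh2, a histone methyltransferase of polycomb complexes, measured 10.16, 10.25 and 10.33 in HSC and 11.21, 11.31 and 11.47 in GMP, whereas its relative Ezh1 measured 9.22, 8.97 and 9.56 against 8.56, 8.27 and 8.31. The paired enzymes thus lay on opposite sides with no overlap of arrays. Tet1 and Phc1 were higher in HSC by 0.90 and 0.57, as was Cbx7 by 0.55, though not without old HSC 1 (limma adjusted p = 0.0756). Uhrf1, Suz12 and Tet2 differed by -1.52, -0.88 and -0.77. Of 19 lymphoid priming genes, 3 were higher in HSC and 3 in GMP, with a median of -0.05. These counts lie not far from the shares over all genes, 9.25% and 13.0%. Cd52, a small glycoprotein of leukocytes, measured 6.28, 5.81 and 5.90 in HSC and 9.90, 9.96 and 9.92 in GMP, and Satb1, a chromatin organiser of early lymphoid cells, 7.35, 6.76 and 6.72 against 9.40, 9.38 and 9.48. Ltb and Lax1 were higher in HSC by 1.30 and 0.92. Ikzf2 (Helios) was higher by 0.61, but not without old GMP 1, old GMP 2, old HSC 1 or old HSC 3 (limma adjusted p of 0.0647 to 0.142). Ikzf1 (Ikaros) differed by -0.55 and was not called after quantile normalization (limma adjusted p = 0.143). Il7r and Notch1, used by early lymphoid cells, were not called, at 0.08 and 0.03. Of 18 lysosome genes 4 were higher in HSC and 7 in GMP (median -0.46), with the cathepsins on both sides: Ctso, Ctsw, Ctsl and Ctsf at 1.74, 1.11, 0.78 and 0.76, and Ctss, Ctsh and Ctsz at -2.30, -1.56 and -1.54.

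Markers of other cell types that a gate could hold were read beside these results. Mast cell and basophil markers were higher in GMP at 5 of 11 and none in HSC. Mcpt8, a basophil protease, measured 5.84, 5.86 and 6.15 in HSC and 10.15, 10.55 and 10.49 in GMP, and Hdc, Cpa3 and Fcer1a differed by -3.21, -3.19 and -2.15. The mean over the 11 markers was 6.07 to 6.37 on the HSC arrays and 7.48 to 7.63 on the GMP arrays, and its part in the GMP values was not tested. Macrophage markers were higher in GMP at 4 of 12 (Csf1r, Cd68, Adgre1 and Cx3cr1) and in HSC at 1 (Apoe, 1.31). Mature neutrophil markers were higher in GMP at 4 of 11 (S100a8, Cxcr2, S100a9 and Mmp8), and their mean ran from 6.40 to 6.60 on the HSC arrays and from 7.27 to 7.47 on the GMP arrays. Ltf (lactoferrin), a marker not called, measured 6.01, 6.21 and 5.97 in HSC and 6.06, 6.19 and 6.01 in GMP, and the part of such cells in the GMP values was not tested. None of 10 B cell markers and none of 13 stromal and endothelial markers was called by limma, the stromal means being 6.64 to 6.95 in HSC and 6.71 to 6.81 in GMP; 2 stromal markers were called in GMP after quantile normalization. One erythroid marker of 9, Car2, was higher in HSC, with 10.88, 10.83 and 11.09 against 7.69, 7.17 and 8.12, and 1, Tfrc, was lower (-1.58). Of 13 T and NK markers Klrb1c was higher in HSC by 2.00 and Nkg7 and Gzmb were higher in GMP, at -3.76 and -1.59. The erythroid and the T and NK counts lay near the shares over all genes, 9.25% in HSC and 13.0% in GMP.

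To ask whether age altered the gap between HSC and GMP, the same contrast was taken in the young arrays. Young HSC and GMP differed at 4741 genes (24.6%), 2633 higher in HSC (13.6%) and 2108 higher in GMP (10.9%). Of the genes called in old mice 69.3% were called the same way in young, which is 62.7% of the young calls. A single gene, Flt3, was called in both with opposite sign. Differences in old and young correlated at 0.85 over genes, given as a description. Among genes called in old mice the young difference was at the median 0.73 of the old one. Choosing genes by their old call by itself favours a ratio under 1, so this ratio cannot tell whether the gap was wider in old mice. Of the 1317 genes called in old mice alone, 1178 had the same sign in young and 5 passed the test of the difference itself.

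**Figure D4:**
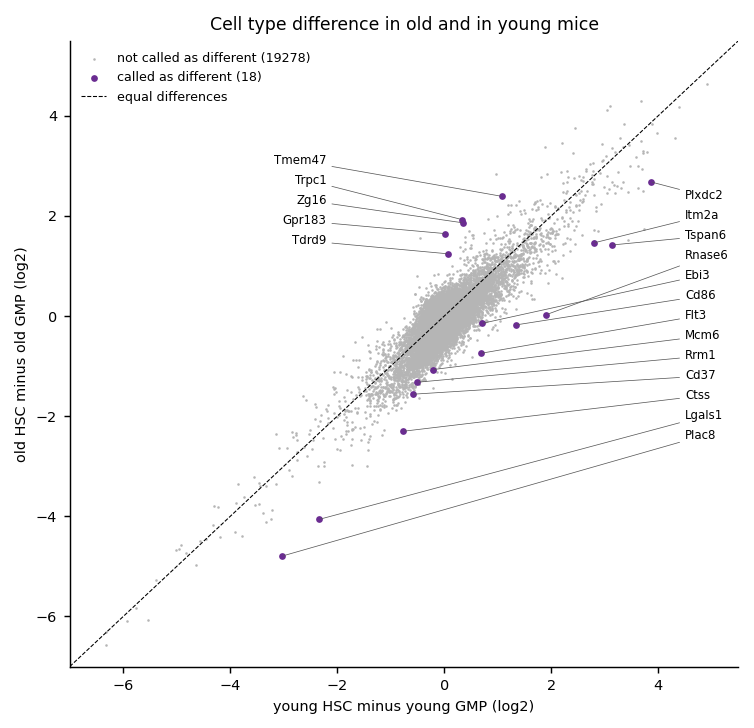
HSC minus GMP difference (log2) in old mice against that in young mice for each of the 19296 genes, with the genes whose old and young differences differed by test marked. The dashed line marks equal differences, and Flt3 lies at -0.74 in old and 0.69 in young. Among genes called in old mice the median ratio of young to old difference was 0.73, which choosing genes by the old call by itself favours.

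The test of old against young difference called 18 genes (0.0933%), 5 (0.0259%) with a difference further towards HSC in old mice and 13 further towards GMP. At an unadjusted p under 0.05 there were 2165. Flt3, a cytokine receptor of multipotent progenitors, had the smallest adjusted p, with a change of -1.43 ± 0.18 (limma adjusted p = 0.0028). Its mean levels were 7.76 in old HSC, 8.50 in old GMP, 8.45 in young HSC and 7.76 in young GMP. Flt3 encodes Flk2, which the HSC gate excluded, yet in young mice it was higher in HSC. The part of sorting in this change was not tested. Flt3 was also the gene that kept its call on leaving out each of the 15 arrays. Gpr183, an oxysterol receptor of lymphoid and myeloid migration, had means of 9.64, 7.99, 7.87 and 7.85 in the same order. Trpc1, a cation channel, had 7.70, 5.77, 6.19 and 5.86, and Zg16, a lectin, 7.44, 5.58, 6.08 and 5.73. In these 3 genes the old HSC mean stood apart and the other groups lay close to each other. For Trpc1 and Zg16 all 3 old GMP arrays were below their lower quartile, so that closeness lies near the dim end of the arrays. The changes of Gpr183, Trpc1 and Zg16 were 1.63 ± 0.27, 1.59 ± 0.26 and 1.51 ± 0.23 (limma adjusted p of 0.0257, 0.0257 and 0.0231). Each kept its call on leaving out 6, 5 and 10 of the 15 arrays.

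Among genes whose difference leaned further to GMP in old mice, Plac8 went from -3.03 in young to -4.79 in old, Lgals1 (galectin 1) from -2.34 to -4.06 and Ctss (cathepsin S) from -0.77 to -2.30. Their GMP means were close at the ages (12.47 and 12.51 for Plac8, 12.49 and 12.48 for Lgals1, 9.64 and 9.61 for Ctss in young and old). Their HSC means were 9.44 in young and 7.71 in old for Plac8, 10.15 and 8.42 for Lgals1, and 8.87 and 7.31 for Ctss. The gap between ages thus lay in the HSC means of these 3 genes. Rnase6, Cd86, Itm2a and Tspan6 were higher in young HSC, by 1.91, 1.34, 2.79 and 3.14, and the old differences were 0.03, -0.18, 1.46 and 1.42. All of these lost the call on leaving out at least 10 of the 15 arrays, as given for each gene in the closing section. Mcm6 and Rrm1, called members of the replication list named after their values were seen, moved by -0.85 ± 0.16 and -0.81 ± 0.15 (limma adjusted p of 0.0461 and 0.0464). Neither was called in the 4 fits that left out 1 array and called Flt3 alone, nor after quantile normalization. Mcm6 measured 10.02, 9.93 and 10.34 on the old HSC arrays and 11.18, 11.09 and 11.22 on the old GMP arrays, with means of 10.91 and 11.13 in young. Rrm1 measured 9.58, 9.82 and 9.88 against 11.06, 11.09 and 11.09, with means of 10.31 and 10.82 in young.

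**Figure D5:**
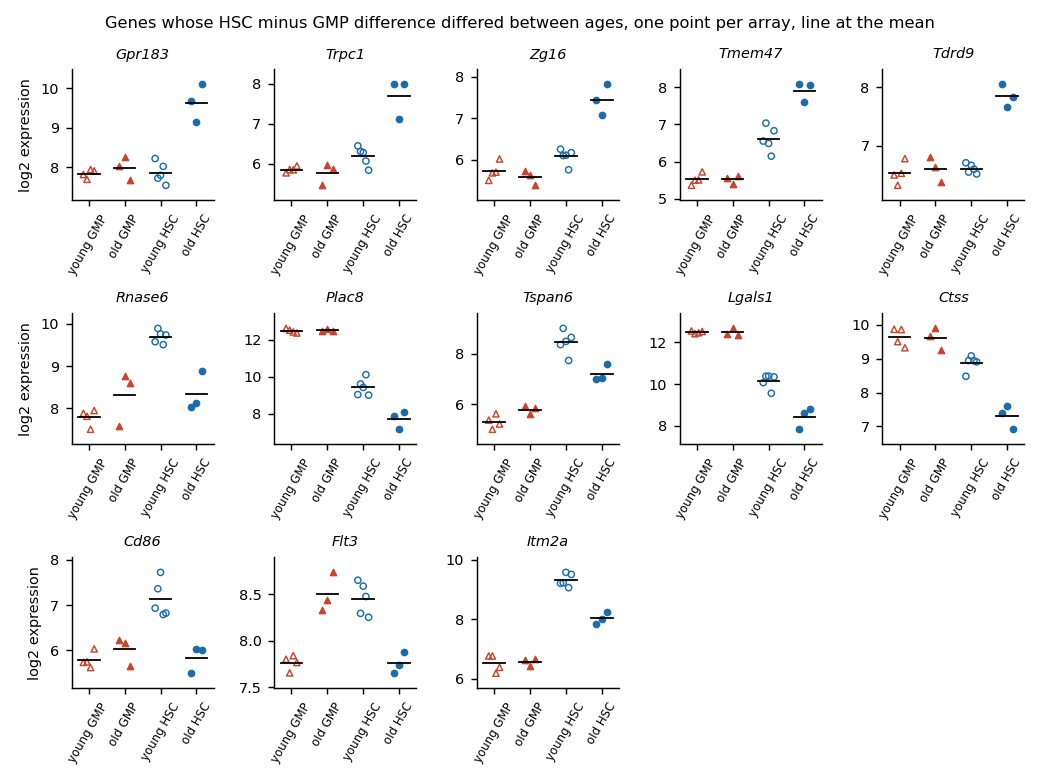
Log2 level of the 13 named genes whose HSC minus GMP difference differed between old and young by test, 1 point per array in each of the 4 groups. Old HSC points stand apart for Gpr183 (mean 9.64) and Zg16 (mean 7.44), while Flt3 has opposite orders in old and young.

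The same change was read over the gene groups of cell division and respiration, as counts and medians without a test. The median change in difference, old minus young, was -0.47 over the 46 replication genes, 45 of them negative and 2 called, against 0.02 over all genes, where 9186 of 19296 were negative. It was -0.57 over the 29 mitotic genes, with 26 negative and none called by limma at the adjusted threshold. Of the 29, 17 had an unadjusted p under 0.05, against 2165 of all 19296 genes. The median change was -0.41 over the 31 respiration genes, with 30 negative. After quantile normalization the replication, mitosis and respiration medians were -0.35, -0.38 and -0.20, 39 replication genes were negative and none was called. Young medians for these lists were -0.49, -1.03 and -0.36. The size of a change in difference followed brightness: over all genes its median was -0.16, -0.26 and -0.26 in the 3 brightest of 10 groups.

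Arrays had much weight in the age test. Leaving out 1 array gave from 1 gene (old GMP 2, old HSC 1, young GMP 3 or young HSC 3) to 192 (young HSC 4), and without replicate 4 of both young groups, whose interquartile ranges of 2.21 and 2.13 lie below the other young arrays' 2.43 to 2.69, 145 genes were called. The count was 2 without old GMP 3, 3 without young HSC 2 or young HSC 5, 4 without old GMP 1 or young GMP 4, 5 without young GMP 2, 8 without young GMP 1 and 12 without old HSC 2. After quantile normalization 5 genes were called, 3 of them among the 18 (Gpr183, Tdrd9 and Flt3). The other 10 named genes, among them Trpc1, Zg16, Plac8, Lgals1 and Ctss, had limma adjusted p of 0.0502 to 0.099 there. With the interquartile range as a covariate the named genes called were Trpc1, Zg16 and Flt3, and Gpr183 and Tdrd9 were not called. Sex-linked genes also differed between the old and the young arrays. Xist measured 5.46 to 5.84 on the old arrays and 4.72 to 11.51 on the young, with 7 of 9 young arrays above the highest old one. The mean of 3 Y-linked genes was 8.45 to 8.80 in old and 4.94 to 8.80 in young, although all mice were labelled male. Age and these levels thus differed together, and the age test cannot tell them apart. Between old HSC and old GMP the differences of these 4 genes ran from -0.24 to 0.33, and none was called. The spread in that fit includes the young arrays, so the missing calls by themselves say little about the old arrays. The part of the 4 genes in the age test was not tested.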

How the data were processed

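The values analysed were the deposited log2 expression values of 15 arrays, 23309 probe sets each; per the submitters' processing notes the authors used RMA, affy and limma, and filters, versions and annotation release are not given in the sources used here. Of the probe sets 20728 name 1 gene, 1174 several and 1407 none; the last 2 kinds were left out. Entrez identifiers of 20685 were found in RefSeq's GRCm38.p6 gene table and 0 symbols changed. The 19296 genes (804 with several probe sets, of which the brightest stood for the gene) were fitted with 1 mean per group over all 15 arrays by limma 3.58.1 (lmFit, eBayes) in R 4.3.3. The same fit gave the young contrast and the old against young change. Background correction in RMA compresses differences of dim genes, and the number of arrays limits precision. Interquartile ranges ran from 1.96 (old HSC 2) to 2.69 (young HSC 1), so the deposited values do not share 1 distribution. List genes without a usable probe set were not analysed here.

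The members and gene lists were chosen with earlier results of these data known. Named genes are the 12 largest non-overlapping called differences each way, up to 4 called members of a list each way (2 where none was called), the gate genes and markers, and up to 8 age-dependent genes each way. Runx1, Hoxa9, Gata2, Gata3, Hoxb5, Gfi1, Gfi1b, Procr, Esam, Vwf, Itga2b, Cdkn1b, Cdkn2c, Mcm2, Mcm6, Rrm1, Chek1, Atr, Atrip, Mki67, Abcg2, Abcb1a, Lyz2, Il7r, Notch1, Prtn3 (for its values), Pcna and Ltf lie outside that rule and were chosen after their values were seen. Same-numbered HSC and GMP arrays deviated together at r of 0.05, 0.23 and 0.42 in old mice and at 0.16 to 0.53 in all 4 young pairs, so over 0.1 in every young pair but not in every old one; the labels do not say what the numbers mark. The fit was tested on simulated data. Alternatives were other scaling, filters, probe averaging, separate fits, array weights, covariates, a replicate block and leaving out arrays.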

Additional observations from a re-analysis of the deposited data

Results flagged for a closer look

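For 13 named genes the difference between HSC and GMP itself differed between old and young mice by the limma interaction test. The values are log2, old minus young, each with how many of the 15 fits that left out 1 array kept the call.

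Towards HSC in old mice the change was 1.63 for Gpr183 (6 of 15 fits), 1.59 for Trpc1 (5 of 15), 1.51 for Zg16 (10 of 15), 1.30 for Tmem47, a small membrane protein (3 of 15), and 1.17 for Tdrd9, a helicase of the piRNA route (8 of 15). In old mice these genes differed by 1.65, 1.93, 1.86, 2.39 and 1.24, and in young mice by 0.02, 0.33, 0.35, 1.09 and 0.08.

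Towards GMP in old mice the change was -1.33 for Itm2a (5 of 15), -1.43 for Flt3 (15 of 15), -1.51 for Cd86, a costimulatory ligand (1 of 15), -1.53 for Ctss (5 of 15), -1.72 for Lgals1 (5 of 15), -1.72 for Tspan6, a tetraspanin (2 of 15), -1.76 for Plac8 (4 of 15) and -1.88 for Rnase6, a ribonuclease of the antimicrobial family (4 of 15). Cd86 was below the lower quartile on all 6 old arrays. Trpc1, Zg16, Tmem47 and Tspan6 were below it on all 3 old GMP arrays.

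Old and young arrays also differed in Xist and Y-linked genes, as given above, and the part of this in the 13 changes was not tested. Of these genes Tmem47, Itm2a and Tspan6 lie on the X chromosome. After quantile normalization Gpr183, Tdrd9 and Flt3 kept the call and the other 10 genes did not. With the interquartile range as a covariate Trpc1, Zg16 and Flt3 kept it. Gpr183 and Tdrd9 then had a limma adjusted p of 0.0546 each, so of the named genes only Flt3 kept its call in both settings. Dixon's test met its threshold in none of the 26 groups of young values (4 or 5 arrays each) of these 13 genes; old groups of 3 arrays were not tested.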

How the results depend on the processing

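The count of genes called between old HSC and old GMP, 4292, stayed within 1.5 times under quantile normalization (4577), with genes under the median level left out (3800), with the mean of all probe sets (4294), on the 6 old arrays alone (4305), with the interquartile range as a covariate (4498) and with trended robust variances (4246); array weights gave 7494. Leaving out 1 array gave 3272 (without old GMP 3) to 4220. A fit with the replicate number as a block gave 5392, with 4279 of the 4292 among them; same-numbered old arrays deviated together at r of 0.05, 0.23 and 0.42, and old HSC 2 was as close to old GMP 1 (0.23), so the numbers do not clearly pair the old arrays. Of 183 named genes 170 were called, and no called gene turned sign. The young count was 4741 and ran from 3919 to 5494 on leaving out 1 array, and with the block it was 6121. Same-numbered young arrays deviated together, but young HSC 2 was as close to young GMP 1 (r of 0.247) as to young GMP 2 (0.235). The numbers thus do not clearly pair every young array either. The age test's 18 calls became 5 after quantile normalization, 5 with the interquartile range as a covariate, 2407 with array weights and 22 with the block; 3, 3, 18 and 10 of the 18 were among them. With the block Gpr183, Trpc1, Tspan6 and Itm2a had limma adjusted p of 0.0508 and Cd86 of 0.0519. The count ran from 1 to 192 on leaving out 1 array; without replicate 4 of both young groups, an alternative chosen after seeing the data, it gave 145. The cause of these moves was not tested. Uncalled values near 0 turned sign: Cd4 became -0.19 with the interquartile range as a covariate and ran from -0.026 (without old GMP 3) to 0.24 on leaving out 1 array, below 0 also without old HSC 2; Cd5 ran from -0.12 to 0.071, above 0 without old GMP 1 or old HSC 3; Rnase6 became -0.18 with array weights and ran from -0.34 to 0.25, below 0 without old GMP 1 or old HSC 3. In the dimmest of 10 groups of genes 30 were called in HSC and 10 in GMP, and in the next 81 and 29.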

Other observations

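The gene groups higher in old HSC were also read in young mice. Stem cell transcription factors had a median difference of 0.91 in old and 1.04 in young mice, and platelet and megakaryocyte genes 1.05 and 0.75. Over the platelet genes the median change, old minus young, was 0.13, with 7 of 18 negative and none called by limma (4 at an unadjusted p under 0.05). Over all 19296 genes the median change was 0.02, with 9186 negative and 2165 at an unadjusted p under 0.05. Imprinted genes had medians of 0.52 and 0.41, and interferon targets 0.69 and 0.77.

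Gimap GTPases were higher in young HSC at 8 of 8 genes and in old HSC at 5 of 8. Over all genes the shares called higher in HSC were 13.6% in young and 9.25% in old mice. The median change over the Gimap genes was -0.66, with all 8 negative, none called by limma and 4 at an unadjusted p under 0.05. Of all 19296 genes 9186 were negative and 2165 had an unadjusted p under 0.05. After quantile normalization the Gimap median was -0.54 and 7 of the 8 were negative. Class II antigen presentation genes were higher in young HSC at 5 of 6 and in old HSC at 2 of 6, with medians of 1.44 and 0.69. A loss of a call is not a test of a difference, and no member of either group passed the test of old against young.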
